A study of Mus musculus with 8 samples.

Results

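The estrogen receptor and its coregulators were followed in the liver as 9 genes chosen by name, of 21532 genes in the deposited table. They are the receptors Esr1 and Esrra, the p160 coactivators Ncoa1, Ncoa2 and Ncoa3, the acetyltransferases Crebbp and Ep300, and the corepressors Ncor1 and Nrip1. Liver RNA-Seq compared 4 control and 4 AF1 peptide-treated male db/db mice, with 1 library per mouse. All 8 animals carried the db/db genotype, on a C57B/6 J background, and so lacked a working leptin receptor and served as a model of obesity with diabetes. From 8 weeks of age, AF1 peptide or control was injected at 5 mg/kg, 2 times per week for 5 weeks. AF1 peptide holds 34 residues from the N-terminal activation function 1 (AF1) region of ERα. It was designed by leaving 2 sequences out of a longer segment, and so is not 1 unbroken stretch. It is joined to a FITC-labelled TAT sequence that carries it into cells. It was given as a peptide and not as a transgene, so it adds no Esr1 RNA of its own. The comparison asks how the genes for the receptor that the peptide was derived from, and for the proteins that work with that receptor, stood in the treated liver.

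ERα, encoded by Esr1, is a nuclear receptor that binds estrogen and then binds DNA at estrogen response elements. It has an activation function at each end of the protein, AF1 in the N-terminus and AF2 in the hormone-binding part. Through them it recruits p160 coactivators, which bring in the histone acetyltransferases CBP and p300. Corepressors such as NCoR1 and RIP140 (encoded by Nrip1) instead recruit histone deacetylases and lower transcription. In the liver, ERα acts on lipid and glucose metabolism in both sexes. ERRα, encoded by Esrra, has a similar structure but binds no estrogen, and is known for its role in mitochondrial and oxidative metabolism.

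Promoters are shown for Esr1 and Esrra, the receptor genes of the set, because these 2 members were called between the groups, at an unadjusted p value under 0.05. The windows are the 250 bases before the transcription start in RefSeq GRCm38.p6, written 5′ to 3′ on the gene's strand. Capitals mark a GC box, the letters GGGCGG or their reverse complement CCGCCC. Esr1 has 2 annotated starts on chromosome 10, at the ends of chr10:4611739-4611988 (plus strand) and chr10:4709908-4710157 (plus strand). The Esrra window is chr19:6921809-6922058 (minus strand).
Esr1, start 1: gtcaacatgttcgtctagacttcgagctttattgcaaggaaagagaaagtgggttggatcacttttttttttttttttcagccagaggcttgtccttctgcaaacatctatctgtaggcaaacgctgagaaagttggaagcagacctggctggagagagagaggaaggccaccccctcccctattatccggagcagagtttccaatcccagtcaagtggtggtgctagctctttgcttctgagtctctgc
Esr1, start 2: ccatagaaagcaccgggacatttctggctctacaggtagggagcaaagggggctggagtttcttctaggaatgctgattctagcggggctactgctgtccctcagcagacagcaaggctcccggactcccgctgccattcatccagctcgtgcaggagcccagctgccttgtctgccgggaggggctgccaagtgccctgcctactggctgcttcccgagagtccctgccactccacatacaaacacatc
Esrra: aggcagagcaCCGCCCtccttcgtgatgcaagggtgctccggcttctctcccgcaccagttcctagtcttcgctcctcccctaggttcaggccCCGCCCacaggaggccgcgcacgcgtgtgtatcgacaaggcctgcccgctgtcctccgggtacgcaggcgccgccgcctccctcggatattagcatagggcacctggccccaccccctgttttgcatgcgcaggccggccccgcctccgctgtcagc

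The 3 windows differed in base composition. GC content was 47.6% and 59.6% before the Esr1 starts and 68.4% before the Esrra start, against a median of 52.4% over all 32851 mouse promoter windows of this length. The Esrra window held 2 GC boxes, a motif present in 32.7% of all windows, and the Esr1 windows held none. An estrogen response element, searched as GGTCA and its reverse complement TGACC with 3 bases between them, is present in 0.0639% of all windows and was in none of the 10 windows of the 7 members with a RefSeq entry. The estrogen-related receptor element TCAAGGTCA (0.387% of all windows) was in none of them either. The arm GGTCA, which both elements contain and which is present in 35.2% of all windows, was found 1 time, before start 1 of Nrip1. The GC box was also found before Ncoa1 (7 times), Crebbp (2), Ep300 (1), start 1 of Ncor1 (2) and start 2 of Nrip1 (2). TATAAA, in 12.4% of all windows, was in none of the members' windows. These matches describe letters in a window and not binding by a factor. Ncoa2 and Ncoa3 have no entry in the promoter table.

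Libraries held 35260283 to 45117528 reads in control mice and 23031880 to 43978158 in AF1 peptide-treated mice. AF1 peptide replicate 2 had the fewest reads of the 8 mice and the highest share of mitochondrial transcripts (37.8%). The liver of AF1 peptide replicate 1 stood apart from the other 7 in a principal component analysis of the tested genes (first component -74.2, against -2.33 to 21.8 for the others, 39.3% of the variance). The same mouse had the lowest summed level of macrophage markers (3384 normalized counts, against 7617 to 9520 in control mice and up to 9198 in treated mice). It was also the lowest of the 8 mice for the hepatocyte, endothelial, stellate cell, cholangiocyte, lymphocyte and red blood cell marker sums. At an unadjusted p value under 0.05 in limma, 1 of 10 macrophage markers (Adgre1) and 1 of 10 stellate cell markers (Dcn) were lower, and 1 of 10 endothelial markers (Stab1) was higher. None of the 9 hepatocyte, 7 cholangiocyte, 8 lymphocyte and 5 red blood cell markers tested passed. Over all tested genes, 6.19% passed in either direction. By sign alone, 9 of 10 macrophage, 2 of 10 stellate cell and 7 of 10 endothelial markers were lower, so Dcn and Stab1 went against most of their lists. In whole liver, fewer cells of a type and less RNA per cell cannot be told apart. For the 9 genes, the group differences are also given without AF1 peptide replicate 1, and its part in the other results was not tested beyond the values given beside them.

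In length-corrected terms Esrra was by far the most abundant of the 9 genes. Its level was 415 ± 42.6 normalized counts per kilobase of annotated exon (SD over the 8 mice), and it made up 51.5 to 56.5% of the 9 genes' summed level in control mice and 55.2 to 57.3% in treated mice. Ncoa3 (76.9 ± 8.79 per kilobase) and Ncor1 (75.8 ± 7.58) followed, and did not differ beyond their spread. Next came Ncoa1 at 46.5 ± 3.95, Crebbp at 43.1 ± 4.51 and Ep300 at 36.8 ± 4.79 per kilobase, whose ranges over the mice overlapped. Ncoa2 (22.2 ± 1.93), Esr1 (20.6 ± 7.97) and Nrip1 (18.0 ± 1.47) had the lowest levels per kilobase, and the range of Esr1 over the mice took in those of the other 2. With the length of the longest transcript in place of all exons, Esrra stayed first and Nrip1 last, while the 7 genes between them traded places. The RNA of the estrogen receptor was thus among the scarcest of the set and that of its estrogen-independent relative the most abundant.

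**Figure D1:**
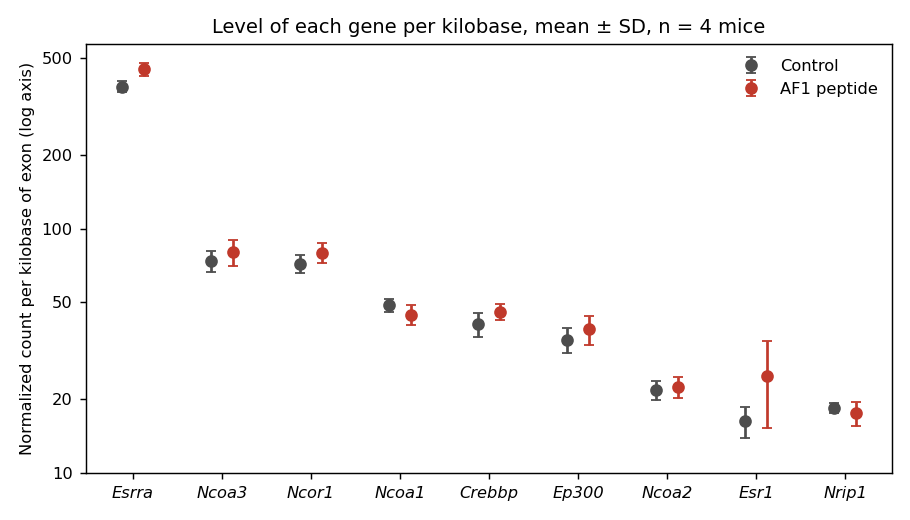
Level of each of the 9 genes in normalized counts per kilobase of annotated exon, on a log axis. Points are group means and bars the SD over 4 mice, for control (grey) and AF1 peptide (red). Esrra stands far above the other genes, and on this axis the widest bar is that of Esr1 in treated mice.

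Of the 9 genes, 7 had a higher and 2 a lower mean log2 level in AF1 peptide-treated mice. The 2 receptor genes were called higher at an unadjusted p value under 0.05 in limma, the threshold of the study, and no member was called lower. Over all 15989 genes tested, 3.16% were called higher and 3.03% lower, 6.19% in either direction. After Benjamini-Hochberg adjustment over all tested genes, limma called none of the 9 and no other gene (990 genes at the unadjusted threshold). edgeR likewise called 0 genes after adjustment (1036 before) and DESeq2 3 genes (1008 before), on reads recovered from the table. The members' median log2 fold change was 0.14, beside -0.01 over all tested genes. With a fold change over 1.3 as a second condition, 1 member (Esr1) was called, beside 3.69% of tested genes. The groups did not overlap for 1 member (Esrra), beside 3.9% of tested genes.

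**Figure D2:**
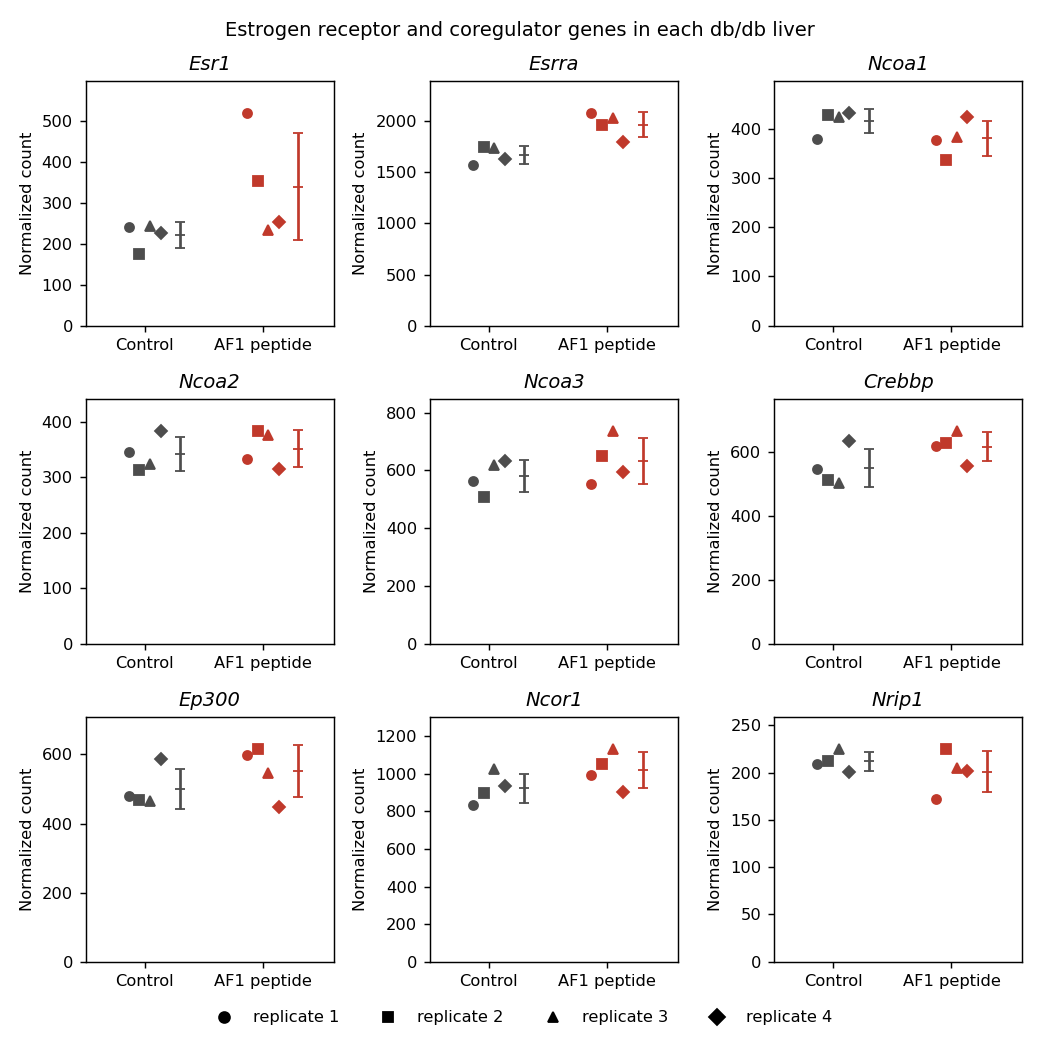
Normalized count of each gene in each mouse, with an axis from 0 in every panel. Symbols mark the replicate number, and bars the mean ± SD of 4 control (grey) or 4 AF1 peptide (red) mice. For Esr1, treated replicates 1 and 2 lie far above the control mice while replicates 3 and 4 lie near them. For Esrra, all 4 treated mice lie above all 4 control mice.

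Esr1 was measured at 241, 175, 244 and 226 normalized counts in control mice 1 to 4. In AF1 peptide-treated mice 1 to 4 it was measured at 521, 354, 233 and 253. Treated mice 1 and 2 were far above the control range, mouse 4 just above it and mouse 3 inside it, so the groups overlapped. The mean was 222 ± 32.0 in control and 340 ± 131 in treated mice (SD, n = 4). On the log2(normalized count + 1) scale the difference was 0.55 (SE 0.24, 95% interval 0.03 to 1.08), a fold change of 1.47 (1.02 to 2.11). limma gave an unadjusted p value just under 0.05 and a Benjamini-Hochberg adjusted p = 0.763, and a two-sided exact permutation test of the log2 values p = 0.0857. The coefficient of variation was 14.4% in control and 38.6% in treated mice. Counting error was smaller than either, at 7.5% for the library with the fewest Esr1 reads (178).

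Whether the Esr1 difference passed the threshold depended on single mice. Without AF1 peptide replicate 1 the log2 difference was 0.32 and was not called by limma. Leaving out each of the 8 mice in turn gave differences of 0.32 to 0.71, all higher in treated mice, and 5 of the 8 fits had a p value of 0.05 or more. Those 5 left out control replicate 1, 2 or 4 or AF1 peptide replicate 1 or 2. With libraries rescaled to equal totals the difference was 0.46 and was not called either. On all 8 mice, edgeR (0.61) and DESeq2 (0.62) gave differences that were called at the unadjusted threshold.

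Esrra was measured at 1574, 1746, 1742 and 1629 normalized counts in control mice 1 to 4. In AF1 peptide-treated mice 1 to 4 it was measured at 2083, 1967, 2031 and 1794. Every treated mouse was above every control mouse, although treated mouse 4 was close to control mice 2 and 3. The mean was 1673 ± 85.5 in control and 1969 ± 126 in treated mice (SD, n = 4). The log2 difference was 0.23 (SE 0.09, 95% interval 0.04 to 0.43), a fold change of 1.18 (1.03 to 1.35). limma gave an unadjusted p value under 0.05 and a Benjamini-Hochberg adjusted p = 0.763, and the two-sided exact permutation test p = 0.0286, the smallest that 4 against 4 mice can give. The coefficient of variation was 5.11% in control and 6.38% in treated mice, and counting error at the fewest reads (1077) was 3.05%. Without AF1 peptide replicate 1 the log2 difference of Esrra was 0.21 and was still called by limma. With each mouse left out in turn, Esrra ranged from 0.21 to 0.28, and 3 of the 8 fits (without control replicate 1, control replicate 4 or AF1 peptide replicate 3) had a p value of 0.05 or more. Exons of Esrra overlap those of Trmt112 on the opposite strand and the microRNA gene Mir6990 on the same strand, and 1.49% of its 50-base words are shared with other transcripts. The use of strand in counting is not given in the sources used here.

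**Figure D3:**
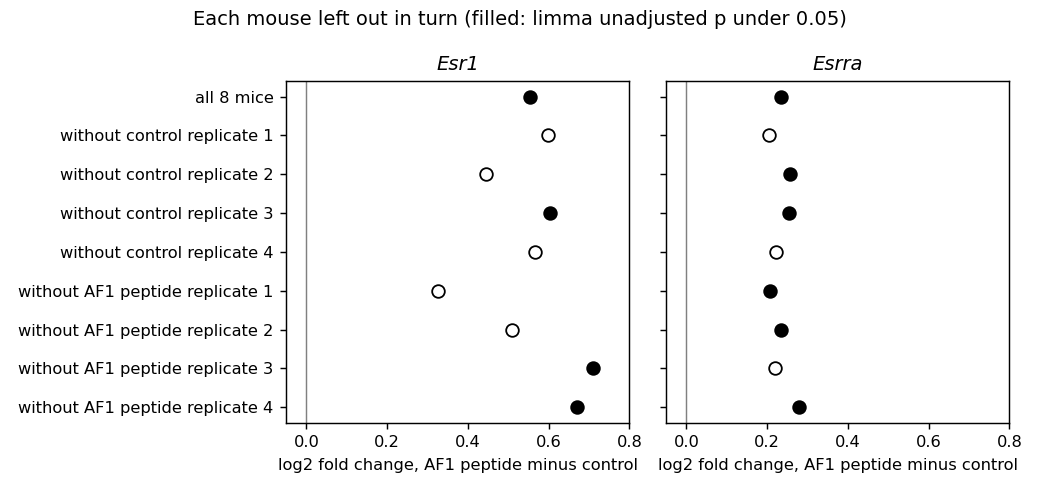
log2 fold change (AF1 peptide minus control) of Esr1 and Esrra with all 8 mice and with each mouse left out. Filled circles have an unadjusted p value under 0.05 in limma and open circles do not. Esr1 ranges from 0.32 to 0.71 and Esrra from 0.21 to 0.28.

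The scale of the libraries mattered for both receptors. Mitochondrial transcripts took 22.4 to 34.3% of reads in control mice, 34.3 to 37.8% in AF1 peptide replicates 2 to 4 and 20.8% in AF1 peptide replicate 1. Rescaling to equal totals moved the median difference of all tested genes to -0.10 and changed the split of calls from 506 higher and 484 lower to 129 higher and 769 lower. Esrra then had a difference of 0.14, and neither receptor gene was called. With equal totals computed without the mitochondrial genes the median difference was -0.01, as with the deposited size factors. On that scale Esr1 had a difference of 0.55 and Esrra of 0.23, and both were called.

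The p160 coactivators Ncoa1, Ncoa2 and Ncoa3 bind the AF2 surface of liganded receptors and also contact AF1. Ncoa1, which encodes SRC-1, was measured at 381, 428, 424 and 433 normalized counts in control mice and 377, 338, 385 and 424 in treated mice. Treated mouse 2 was lowest and the other treated mice lay within or just under the control range. The log2 difference was -0.13 (95% interval -0.36 to 0.10, exact permutation p = 0.171). Ncoa2, which encodes TIF2 (GRIP1), was measured at 346, 313, 324 and 384 in control mice and 332, 384, 376 and 315 in treated mice. These groups covered the same range, with a log2 difference of 0.04 (-0.21 to 0.29, exact permutation p = 0.657), and its sign turned with the scaling (-0.05 at equal totals). Ncoa3, which encodes SRC-3 (AIB1), was measured at 564, 509, 617 and 633 in control mice and 552, 648, 736 and 596 in treated mice. Treated mice 2 and 3 were above all control mice and the other 2 within their range, for a log2 difference of 0.12 (-0.14 to 0.38, exact permutation p = 0.343).

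CBP and p300, encoded by Crebbp and Ep300, are paralogous acetyltransferases that acetylate histones at enhancers and serve many transcription factors besides the receptor. Crebbp was measured at 548, 513, 502 and 634 normalized counts in control mice and 618, 628, 666 and 557 in treated mice. All treated mice were above control mice 1 to 3, but control mouse 4 was above 3 of the 4 treated mice. The log2 difference of Crebbp was 0.17 (95% interval -0.07 to 0.41, exact permutation p = 0.143). Without control replicate 4 it was 0.24 and was called by limma. Ep300 was measured at 480, 468, 465 and 586 in control mice and 599, 616, 546 and 448 in treated mice. Here too control mouse 4 was well above the other 3, and treated mouse 4 was the lowest of all, so that the groups overlapped. The log2 difference of Ep300 was 0.14 (-0.15 to 0.43, exact permutation p = 0.371). Of all pairs of members, Crebbp and Ep300 had the smallest p value for Pearson r over the 8 mice (r = 0.83, exact permutation p = 0.0251). Their Spearman rho was 0.64 (exact permutation p = 0.0962). Their r was 0.97 within control and 0.71 within treated mice, and control mouse 4 was the highest control mouse for both genes. Without the 2 mice farthest from the median in Crebbp, r was 0.79. Of all 36 pairs of members 6 had an unadjusted p under 0.05 for Pearson r and 0 after Benjamini-Hochberg adjustment over the pairs (smallest adjusted p = 0.286, exact permutation tests). The share over pairs of other genes was not computed, so this count cannot be read as particular to the members. Esr1 and Esrra had r = 0.64 over the 8 mice (exact permutation p = 0.0809; Spearman rho = 0.52, exact permutation p = 0.197). Without the 2 mice farthest from the median in Esr1, AF1 peptide replicates 1 and 2, r was 0.01. Without AF1 peptide replicate 1 alone, r was 0.40. Leaving out the mice farthest in Esr1 narrows its range, so the lower r cannot tell whether the receptor genes vary together in the others. Within the groups of 4 mice, r was -0.50 in control and 0.55 in treated mice.

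Of the corepressors, Ncor1 is the scaffold of the HDAC3 complex, and Nrip1 encodes RIP140, which binds liganded receptors and represses metabolic genes. Ncor1 was measured at 835, 895, 1024 and 934 normalized counts in control mice and 994, 1052, 1131 and 902 in treated mice. Treated mice 2 and 3 were above all control mice and the groups otherwise overlapped, with a log2 difference of 0.14 (95% interval -0.09 to 0.38, exact permutation p = 0.2). Nrip1 was measured at 209, 213, 225 and 200 in control mice and 172, 225, 205 and 202 in treated mice. Only treated mouse 1 was outside the control range, on its lower side. The log2 difference of Nrip1 was -0.08 (-0.35 to 0.18, exact permutation p = 0.429), and -0.01 without that mouse. For the 7 coregulators the differences ran from -0.13 to 0.17, and limma's Benjamini-Hochberg adjusted p values were 0.777 to 0.953. The differences without AF1 peptide replicate 1 were -0.13 for Ncoa1, 0.07 for Ncoa2, 0.18 for Ncoa3, 0.17 for Crebbp, 0.10 for Ep300 and 0.16 for Ncor1, and limma called none of the 7. The intervals of Ncoa2, Ncoa3, Crebbp, Ep300 and Ncor1 include the difference of 0.23 measured for Esrra, and those of Ncoa1 and Nrip1 do not. The interval of Esrra itself, 0.04 to 0.43, overlaps those of Ncoa1 and Nrip1, and differences between genes were not tested. Exons of Ncoa1, Ncoa3 and Ncor1 overlap other annotated genes on the opposite strand (Sulf2 for Ncoa3, Pigl and Ttc19 for Ncor1), and no member shares more than 1.52% of its 50-base words with other transcripts.

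**Figure D4:**
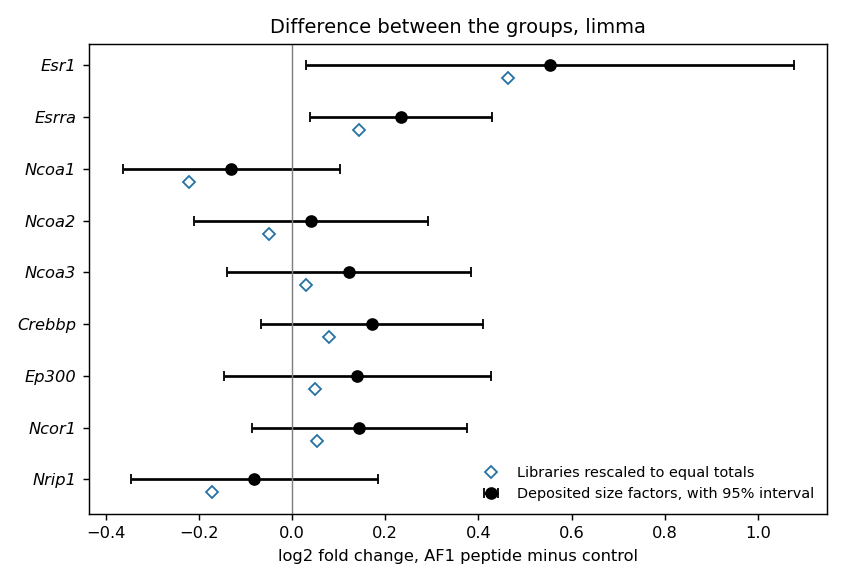
log2 fold change of each gene (AF1 peptide minus control) in limma. Black points with 95% intervals use the deposited size factors, and open diamonds use libraries rescaled to equal totals. The intervals of Esr1 and Esrra exclude 0 and the other 7 include it, and every diamond lies to the left of its point.

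Esr1 was next compared with the rest of the transcriptome to see which genes shared its pattern over the 8 mice. Among 10748 genes with a mean of at least 100 normalized counts, the 5 most like it by Pearson r of log2 values were Glt1d1 (r = 0.986), Spout1 (0.981), Uroc1 (0.973), Sox6 (0.969) and BC024386 (0.968). Uroc1 encodes urocanase of histidine breakdown, and Sox6 a transcription factor. Without AF1 peptide replicate 1, r was 0.960, 0.944, 0.927, 0.913 and 0.924 in the same order. With AF1 peptide replicates 1 and 2 both left out, r was 0.909, 0.888, 0.789, 0.835 and 0.835. Spearman rho over the 8 mice was 0.786, 0.952, 0.952, 0.738 and 0.690. Like Esr1, these genes were highest in treated mouse 1, with 7876 normalized counts of Glt1d1 against 2500 to 3783 in control mice. limma called none of the 5 between the groups at the unadjusted threshold, with adjusted p values of 0.763 to 0.82, although the exact permutation p for Sox6 was 0.0286. They were picked for their likeness, so that r describes these 8 livers only.

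The other receptors of the family that were measured had low normalized counts, which are not corrected for gene length. Esrrg, encoding the estrogen-related receptor γ, was measured at 64.3, 77.8, 63.8 and 73.7 normalized counts in control mice and 49.5, 108, 120 and 90.9 in treated mice. Treated mice 2 to 4 were above all control mice and treated mouse 1 was below them. The log2 difference of Esrrg was 0.32 (95% interval -0.25 to 0.90, exact permutation p = 0.314). Without AF1 peptide replicate 1 it was 0.59 and was called by limma. Esrrb averaged 21.2 ± 4.96 normalized counts in control and 24.8 ± 8.02 in treated mice (log2 difference 0.19, exact permutation p = 0.514). Gper1, the membrane estrogen receptor, had a mean of 2.65 in control and 2.54 in treated mice and was under the filter of 10. Esr2 was not among the 21532 deposited genes, so it was not analysed here.

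Wider lists of genes around the receptor were counted in the same way, each beside the 6.19% of all tested genes that were called in either direction. The exact permutation p given for single genes takes no strength from other genes and cannot go below 0.0286. Several of the named genes called by limma do not pass 0.05 in it, and in each of these the groups overlapped. Of 36 other coactivators, 2 were called higher and 1 lower (8.33%), with a median log2 difference of 0.06. Ncoa6, a subunit of the MLL3/4 methyltransferase complexes, was higher at 722 ± 33.3 against 622 ± 32.0 normalized counts (log2 difference 0.22, exact permutation p = 0.0286). Trim24, a receptor-binding chromatin reader, was higher by 0.32 (exact permutation p = 0.143). Prmt2, a methyltransferase that binds ERα, was lower by a log2 difference of -1.09 (exact permutation p = 0.0286), at levels of 12.2 ± 6.43 against 23.9 ± 3.37 normalized counts. The groups did not overlap for Ncoa6 and Prmt2 and overlapped for Trim24. AF1 peptide replicate 2 held 2 reads of Prmt2, and without that mouse the difference was -0.66. Without 1 mouse limma no longer called Ncoa6 in 5 of 8 fits, Trim24 in 4 and Prmt2 in 2.

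Of 26 other corepressors tested, 3 were called higher and none lower (11.5%), with a median of -0.01. Safb2, which encodes a scaffold attachment factor that binds ERα, was measured at 4087, 3403, 4565 and 4002 normalized counts in control mice and 5512, 5373, 6097 and 4879 in treated mice. Every treated mouse was above every control mouse. The log2 difference of Safb2 was 0.45 (95% interval 0.19 to 0.70, exact permutation p = 0.0286), and limma called it whichever mouse was left out. Of its 50-base words 6.73% are shared, with its neighbour and paralog Safb among others. Zbtb16, encoding the repressor PLZF, was higher by 0.99 (exact permutation p = 0.0571). It was measured at 155, 249, 78.9 and 147 normalized counts in control mice and 426, 310, 203 and 265 in treated mice, with treated mouse 3 inside the control range. Gps2, a subunit of the NCoR complex, was higher by 0.25 (exact permutation p = 0.0857), and was not called in 5 of the 8 fits without 1 mouse.

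Of 27 genes for receptor chaperones, AF1 kinases and receptor turnover, 2 were called, both higher (7.41%), with a median of -0.04. Fkbp5, a co-chaperone of steroid receptors, was measured at 594, 595, 657 and 701 normalized counts in control mice and 1136, 760, 758 and 771 in treated mice. The groups did not overlap, and treated mouse 1 was far above the rest. Its log2 difference was 0.41 (exact permutation p = 0.0286), and 0.26, still called by limma, without that mouse. Ube3a, a ubiquitin ligase that also coactivates steroid receptors, was higher by 0.46 (exact permutation p = 0.0286), at 401 ± 46.7 against 296 ± 59.3 normalized counts. Transcripts on the opposite strand, Snhg14 among them, share 24.8% of its 50-base words. Ube3a was not called without AF1 peptide replicate 2. Without AF1 peptide replicate 1, 7 of the 27 genes and 5 of the 36 other coactivators were called, in a fit that called 10.1% of all tested genes.

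Genes known to respond to the receptors were called in both directions or not at all. Of 21 tested genes known to respond to estrogen in breast and uterus, 1 was called higher and 2 lower (14.3%), with a median log2 difference of -0.16. Igf1, the liver's circulating growth factor, was measured at 9342, 7315, 11114 and 7678 normalized counts in control mice and 14584, 13697, 10530 and 11586 in treated mice. Treated mouse 3 lay within the control range and the other 3 above it, for a log2 difference of 0.52 (95% interval 0.16 to 0.87, exact permutation p = 0.0571). Pdzk1, a scaffold of the HDL receptor, was lower by a log2 difference of -0.60 (exact permutation p = 0.0857). Ccnd1, which encodes cyclin D1, was lower by a difference of -0.86 (exact permutation p = 0.143). Igf1 and Pdzk1 were called whichever mouse was left out, and Ccnd1 was not called without control replicate 2, control replicate 4 or AF1 peptide replicate 2. Other genes share 34.6% of the 50-base words of Pdzk1 and 21.6% of those of Ccnd1.

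Of 24 ERRα target genes of mitochondrial metabolism, none was called by limma at the unadjusted threshold, 12 were higher and 12 lower, and the median was 0.01. edgeR and DESeq2 also called 0 of the 24 at that threshold. limma called 2 of the 24 without AF1 peptide replicate 1, beside 10.1% of all tested genes. Acadm, the medium-chain acyl-CoA dehydrogenase, had the smallest p value of the list, with a log2 difference of -0.31 (95% interval -0.66 to 0.04, exact permutation p = 0.143). Of 17 enzymes of estrogen synthesis and inactivation, 1 was called higher and 2 lower (17.6%), with a median of -0.09. Hsd17b7 had a log2 difference of -0.31 (exact permutation p = 0.0571). Ugt1a1, which conjugates estradiol, had a difference of -0.53 (exact permutation p = 0.114). Hsd17b1, which makes estradiol from estrone, had a difference of 0.76 (exact permutation p = 0.0286) at only 10.6 ± 1.40 and 19.6 ± 8.32 normalized counts. Treated mouse 1 was highest for Hsd17b1, at 31.7 against 12.9 to 17.3 in the other treated mice. Without that mouse the difference was 0.51 and was not called, nor was it in 5 of the 7 fits that left out another mouse. Ugt1a1 was not called in 5 of the 8 fits without 1 mouse, and Hsd17b7 was not called without control replicate 4. Ugt1a1 shares 80.2% of its 50-base words with other genes, mainly of the Ugt1a cluster, so that its reads cannot be assigned with certainty. None of the genes in these lists passed the Benjamini-Hochberg adjusted p value of 0.05 in limma.

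**Figure D5:**
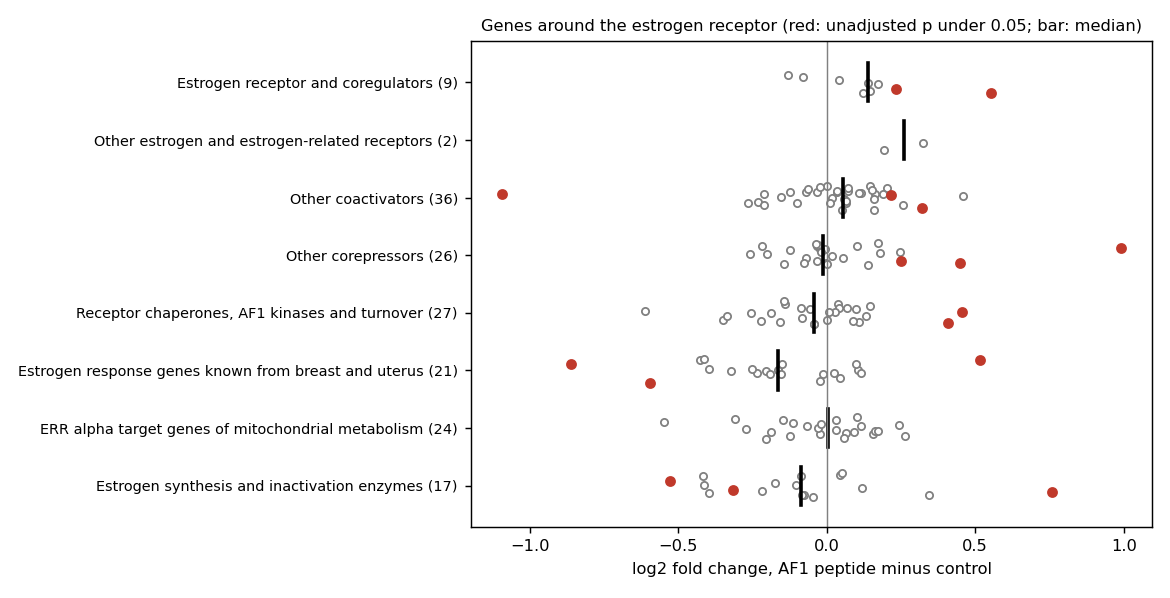
log2 fold change (AF1 peptide minus control) of every tested gene in the 9-gene set and in the 7 lists around the receptor, with the number tested in brackets. Red points have an unadjusted p value under 0.05 in limma, open points do not, and bars mark medians. The medians lie between -0.16 and 0.26.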

How the data were processed

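Liver RNA of 8 male db/db mice (4 control, 4 AF1 peptide) was sequenced from stranded mRNA libraries. Per the study's methods and the submitters' processing notes, the authors trimmed reads with Trim Galore 0.6.7, aligned them to mm39 with HISAT2, sorted them with SAMtools 1.17, counted them with GenomicAlignments and deposited normalized counts for 21532 genes. This deposited signal per gene is the read count divided by 1 size factor per library (0.548 to 1.21): 100% of 172256 values came out as whole reads within 0.01 reads, so depth (23031880 to 45117528 reads) was recovered. The annotation, the use of strand, the treatment of reads matching several genes and the tool that normalized the counts are not given in the sources used here.

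The log2(normalized count + 1) was compared with limma 3.58.1 in R 4.3.3, letting the variance follow expression, for the 15989 genes whose mean was 10 or more. This scale understates changes of low genes. Genes were called at the study's unadjusted p value under 0.05, and Benjamini-Hochberg adjusted p values and, chosen after seeing the data, two-sided exact permutation tests for single genes are given beside. The members and gene lists were chosen with earlier results of these data known. Named were the 9 members, every measured gene of the other receptors, the called genes of each other list (at most 4, or that with the smallest p), and the 5 genes most correlated with Esr1. Groups and replicate numbers came from the labels. The labels do not say whether the numbers pair the mice, and the main fit did not pair them. The replicates were separate mice, and no library duplicated another of its group (chi-square per degree of freedom of at least 14.6). Libraries of different groups were not compared in this way. Lengths, overlapping exons and shared 50-base words came from GENCODE M21 (GRCm38), matching 177 of 181 genes by symbol, and promoters from RefSeq GRCm38.p6, so no position in the build of the files was used. Fits were tested on simulated counts. Alternatives were pseudocounts of 0.5 and 5, no filter or a minimum of 50, TMM, equal totals with and without mitochondrial genes, limma without the trend or with each gene's own variance, the replicate block, edgeR 4.0.16, DESeq2 1.42.0, a 1.3-fold threshold and each mouse left out.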

Additional observations from a re-analysis of the deposited data

Results flagged for a closer look

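A mouse lay far from the other 3 of its group, by Dixon's ratio of the gap to the range above its 95% critical value, in 5 of 68 groups of values examined, where chance gives about 3.4. Among the members this was Ep300, with control replicate 4 at 586 normalized counts above the other control mice (ratio 0.878). Esrrb was lowest in control replicate 2, at 13.8 normalized counts (0.956). Fkbp5 was highest among treated mice in AF1 peptide replicate 1, at 1136 (0.964), and so was Hsd17b7, at 454 (0.840). The library with the most reads was control replicate 1, at 45117528 (0.857). AF1 peptide replicate 1 accounts for 2 of the 5.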

How the results depend on the processing

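The direction was the same for all members but Ncoa2 in every alternative run. Ncoa2, with 0.04 as reported, was -0.051 at equal totals and -0.0031 to 0.10 when each mouse was left out. At equal totals the calls were 0 members, 129 genes higher (506 as reported) and 769 lower (484), 1 other coactivator, 1 chaperone or kinase gene and 2 ERRα targets, with log2 differences of 0.46 for Esr1 and 0.14 for Esrra. Without the intensity trend 1 member was called and Esr1 (0.55) was not. With each gene's own variance 1 member, 1 other coactivator and 1 ERRα target were called and Esr1 (0.55) was not. The exact permutation test left 1 member, without Esr1 (0.55). A change over 1.3-fold left 1 member, 286 genes higher and 304 lower and 1 other coactivator. When each mouse was left out, calls ranged from 0 (without control replicate 1) to 2 members, from 285 higher and 255 lower (both without control replicate 2) to 732 higher and 876 lower (both without AF1 peptide replicate 1), 0 to 1 other receptor (Esrrg), 1 to 5 other coactivators, 2 to 5 other corepressors, 1 to 7 chaperone or kinase genes, 0 to 2 ERRα targets and 0 to 3 estrogen enzymes. In the same fits Esr1 ranged from 0.32 to 0.71, Esrra from 0.21 to 0.28 and Crebbp from 0.13 to 0.24. The replicate number as a block called 597 genes higher and 647 lower, 4 chaperone or kinase genes and 1 ERRα target, and kept Esr1 and Esrra called. Deviations from the group means correlated at -0.064 to 0.235 (mean 0.10) between same-numbered mice of the 2 groups. Between differently numbered mice the correlations were -0.27 to 0.14 (mean -0.03). With 4 mice per group these values cannot decide whether the numbers pair the mice. The causes of these shifts were not tested. With 4 mice per group the smallest exact permutation p is 0.0286, and members were read from 123 to 2466 reads per library.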
